A study of Rattus norvegicus with 6 samples.

Results

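Collagens and the glycoproteins, proteoglycans and cross-linking enzymes around them were examined in the kidneys of diabetic rats with and without Shenqi Jiangtang Granule (SJG), a preparation of several medicinal plants. The members were all genes whose symbol on the array has the form of a collagen chain, from Col1a1 to Col28a1, and a fixed set of matrix genes, namely Fn1, Fbn1, Postn, Lum, Dcn, Bgn, Thbs1, Thbs2, Tnc, Sparc, Eln, the lysyl oxidase family and Ccn2. Of the 18166 genes with a row of their own, 51 were members. They comprised 11 fibrillar collagens, 7 collagens of basement membranes, 18 other collagens and 15 glycoproteins, proteoglycans and cross-linking enzymes. Thbs1, Tnc, Col4a6, Col6a1 and some other collagen chains had no row under their name alone and were not analysed here.

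Both groups were male Sprague Dawley rats labelled as 17 weeks of age and were made diabetic with streptozotocin, a toxin of insulin-producing cells, at 60 mg/kg, with a high-fat diet according to the text of the study. The SJG group was treated by mouth for 8 weeks, at 800 mg/kg/day according to the text of the study, which assigns the arrays to the high-dose group, while the labels give no dose. The diabetic group received saline. RNA of the kidney, given as kidney cortex in the methods, was hybridized to Affymetrix Rat Gene 2.0 ST arrays, 3 per group, and no non-diabetic array was analysed here. The labels do not say which rats the arrays represent, and they name no separate animals. The tests therefore rest on the variation among arrays, part of which may be technical. A code of unstated meaning in the sample titles differs between the groups, and what it stands for and the treatment cannot be told apart.

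Values are log2 signals, and a difference of 1 is a doubling. The groups were compared with limma over all genes. A gene is said to have fallen or risen with SJG where the unadjusted p was under 0.05 and the fold change above 1.5, the thresholds of the study. With these thresholds 385 of all genes fell, 180 rose, together 3.11%, and none had a Benjamini-Hochberg adjusted p under 0.05, with 1133 (6.24%) at an unadjusted p under 0.05. The unmoderated test left 2 genes at an adjusted p under 0.05, neither of them a member. Array medians over all transcript clusters lay between 4.68 and 4.88, and the number of arrays limits the precision. The mean of 8 proximal tubule markers, the main cells of kidney cortex, was 10.50 to 11.05 on the SJG arrays and 10.69 to 10.95 on the diabetic arrays.

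The extracellular matrix of the kidney has compartments that are built from different collagens. Type IV collagen forms the sheet of the basement membranes under tubules, capillaries and podocytes, and its alpha3, alpha4 and alpha5 chains form the mature network of the glomerular basement membrane. Types I, III and V form the fibrils of the interstitium, which accumulate in fibrosis, and fibronectin, decorin, biglycan and the lysyl oxidases help to assemble and cross-link them. Interstitial fibroblasts, pericytes and mesangial cells are their main source, and the excess of matrix in diabetic nephropathy is a hallmark of the disease.

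Of the 51 members, 9 fell with SJG, against a background of 2.12% of all genes that fell, and 1 rose, against 0.991%, so that 10 passed in either direction, against 3.11%. The members that fell were Loxl1, Fn1, Bgn, Col8a1, Col6a3, Col15a1, Col4a1, Sparc and Col18a1, and the member that rose was Col13a1. None of the 51 had an adjusted p under 0.05 (lowest 0.746), 12 had an unadjusted p under 0.05, against 6.24% of all genes, and 41 did not pass the thresholds. The largest decreases were in the cross-linking enzyme gene Loxl1, the glycoprotein gene Fn1, the proteoglycan gene Bgn and the collagen gene Col8a1, and no fibrillar collagen passed. All SJG arrays lay below all diabetic arrays in 13 members, against 5.3% of all genes, and above them in 4, against 5.2%. The median log2 fold change was -0.01 over the members and 0.00 over all genes, since 27 members had negative and 24 positive values. In a sample of whole tissue, fewer cells of a type and less RNA per cell cannot be told apart.

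**Figure D1:**
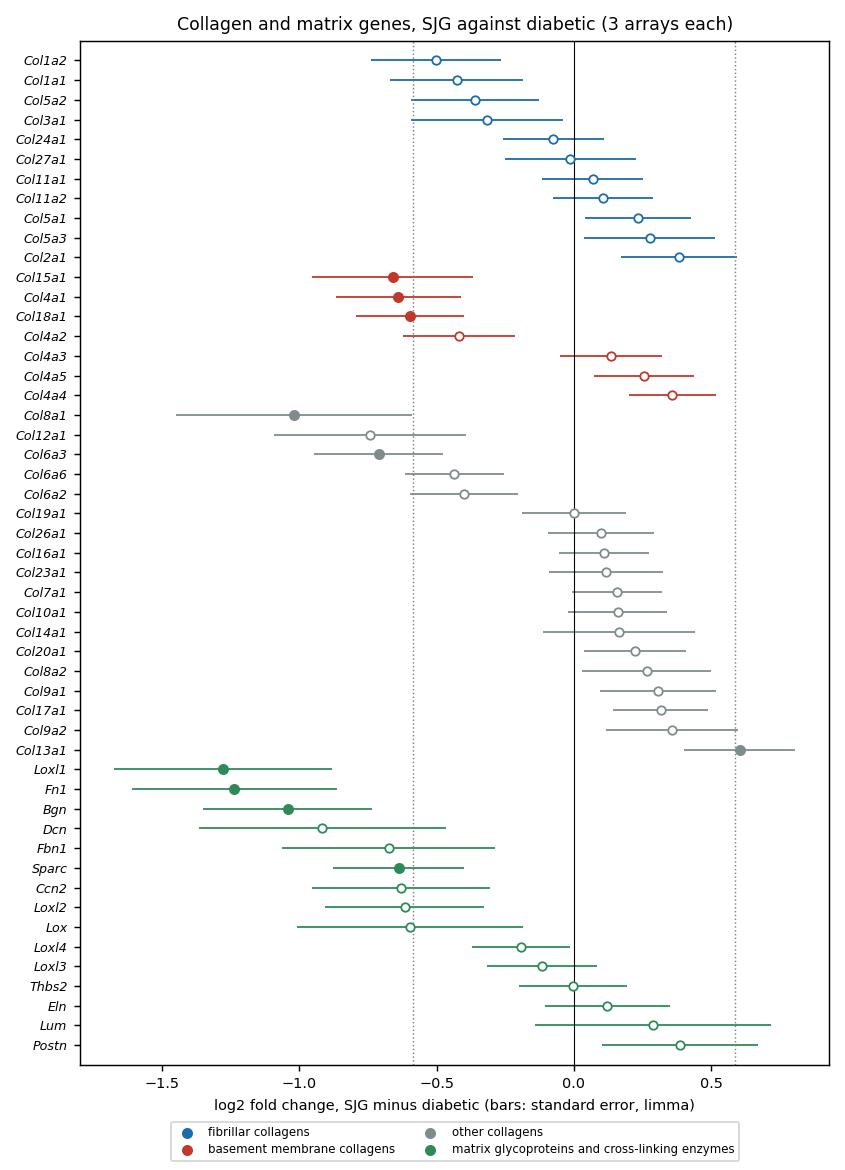
Log2 fold change (SJG minus diabetic, horizontal axis) of each of the 51 members, with the standard error of limma as bars, filled points for members past the thresholds, open points for the others, colours for the class and dotted lines at a fold change of 1.5. Loxl1 at -1.28 and Fn1 at -1.24 lie farthest to the left and Col13a1 at 0.60 farthest to the right.

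Of the 7 glycoproteins of the matrix, Fn1 and Sparc fell, against 2.12% of all genes. The median log2 fold change of the 7 was -0.63, and -0.10 without diabetic replicate 2. Fn1 encodes fibronectin, which binds collagen and integrins and is laid down early in fibrosis. Its log2 signal was 7.11, 6.62 and 7.41 on SJG arrays 1 to 3 and 8.22, 9.20 and 7.43 on diabetic arrays 1 to 3. The groups did not overlap, but diabetic replicate 3 was only just above the highest SJG array. This is a log2 fold change of -1.24 in limma (standard error 0.374, adjusted p = 0.746), a 2.36-fold lower signal with SJG. Sparc, which encodes a collagen-binding calcium protein also known as osteonectin, had 9.72, 9.49 and 9.72 with SJG and 10.24, 10.80 and 9.81 in the diabetic rats, again without overlap, and fell (-0.64 on the log2 scale, standard error 0.238). Sparc no longer passed without SJG replicate 2 (-0.56) or diabetic replicate 2 (-0.38).
Fbn1, which encodes fibrillin-1 of the microfibrils, had 6.08, 6.02 and 6.45 with SJG and 6.25, 8.0 and 6.32 in the diabetic rats. Diabetic replicate 2 stood apart from the other arrays, the groups overlapped and Fbn1 did not pass (log2 fold change -0.67, standard error 0.388). Its value was -0.10 without diabetic replicate 2, and it passed without diabetic replicate 1 (-0.98). Ccn2, the connective tissue growth factor gene downstream of TGF-beta, had 7.68, 7.13 and 7.52 with SJG and 7.24, 8.73 and 8.25 in the diabetic rats, with overlap because of diabetic replicate 1, and it did not pass either (-0.63, standard error 0.325). Without that array Ccn2 fell, with a log2 fold change of -1.05, whereas the value was -0.30 without diabetic replicate 2. Eln, which encodes elastin, Thbs2, which encodes the matricellular protein thrombospondin-2, and Postn, which encodes periostin, had log2 fold changes of 0.12, 0.00 and 0.39, with overlapping groups. Periostin is known as a marker of kidney fibrosis, and its signal was low on all arrays, between 3.21 and 4.55.

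The small proteoglycans biglycan and decorin bind collagen fibrils and regulate their diameter. Bgn had 8.77, 8.60 and 9.10 with SJG and 9.85, 10.58 and 9.16 in the diabetic rats, without overlap. On the log2 scale Bgn was lower with SJG at -1.04 (standard error 0.307, limma, adjusted p = 0.746), a 2.06-fold lower signal. Dcn had 8.67, 8.43 and 8.69 with SJG and 8.82, 10.90 and 8.82 in the diabetic rats. The groups were separate, yet diabetic replicates 1 and 3 lay close to the highest SJG array and diabetic replicate 2 was 2.08 above the mean of both. Dcn did not pass (-0.92, standard error 0.450). Its log2 fold change was -0.22 without diabetic replicate 2, and it passed without diabetic replicate 1 (-1.26). Lum, the lumican gene next to Dcn on chromosome 7, had 2.51, 4.41 and 3.26 with SJG and 2.88, 3.82 and 2.62 in the diabetic rats, with overlap, and did not pass (0.29, standard error 0.429). Diabetic replicate 2 was again the highest of its group, by 1.07 over the mean of the others, but SJG replicate 2 was higher still.

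Lysyl oxidases cross-link collagen and elastin by oxidizing lysine side chains. All 5 members of the family had negative log2 fold changes, as had 9032 of the 18166 genes tested. Of the 5, 1 fell, against 2.12% of all genes. Loxl1, known for its part in elastic fibres, had 6.74, 6.19 and 7.15 with SJG and 7.64, 9.02 and 7.26 in the diabetic rats. The groups did not overlap, and Loxl1 had the largest change of all members, at -1.28 in limma (standard error 0.397, adjusted p = 0.746), a 2.42-fold lower signal. Loxl2, which cross-links type IV collagen, had 5.03, 5.17 and 4.94 with SJG and 5.22, 6.46 and 5.32 in the diabetic rats, without overlap but short of the thresholds (-0.62, standard error 0.290). Its value was -0.22 without diabetic replicate 2, and it passed without diabetic replicate 1 (-0.84). Lox itself had 5.33, 4.47 and 5.19 with SJG and 5.04, 6.73 and 5.01 in the diabetic rats. Here diabetic replicates 1 and 3 lay inside the SJG range, and the value of -0.60 (standard error 0.411) became -0.03 without diabetic replicate 2. Loxl3 and Loxl4 had -0.12 and -0.19, with -0.05 and -0.19 without diabetic replicate 2, and neither passed. Below are the bases from 250 before to 50 after the start of Loxl1 (RefSeq, GRCr8, chr8:67612175-67612474, minus strand), shown because it had the largest decrease. Capitals mark motifs in the sequences shown here. The letters searched on either strand were TATAAA for the TATA box, CCAAT for the box of that name, GGGCGG for the GC box and TGAGTCA for the AP-1 element, and none of them occurs in the window of Loxl1.
Loxl1: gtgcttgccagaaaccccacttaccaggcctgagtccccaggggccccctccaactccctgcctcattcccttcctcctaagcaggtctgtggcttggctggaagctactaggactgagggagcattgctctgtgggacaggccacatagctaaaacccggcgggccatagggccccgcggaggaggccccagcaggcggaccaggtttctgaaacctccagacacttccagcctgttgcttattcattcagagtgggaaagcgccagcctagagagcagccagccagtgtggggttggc

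**Figure D2:**
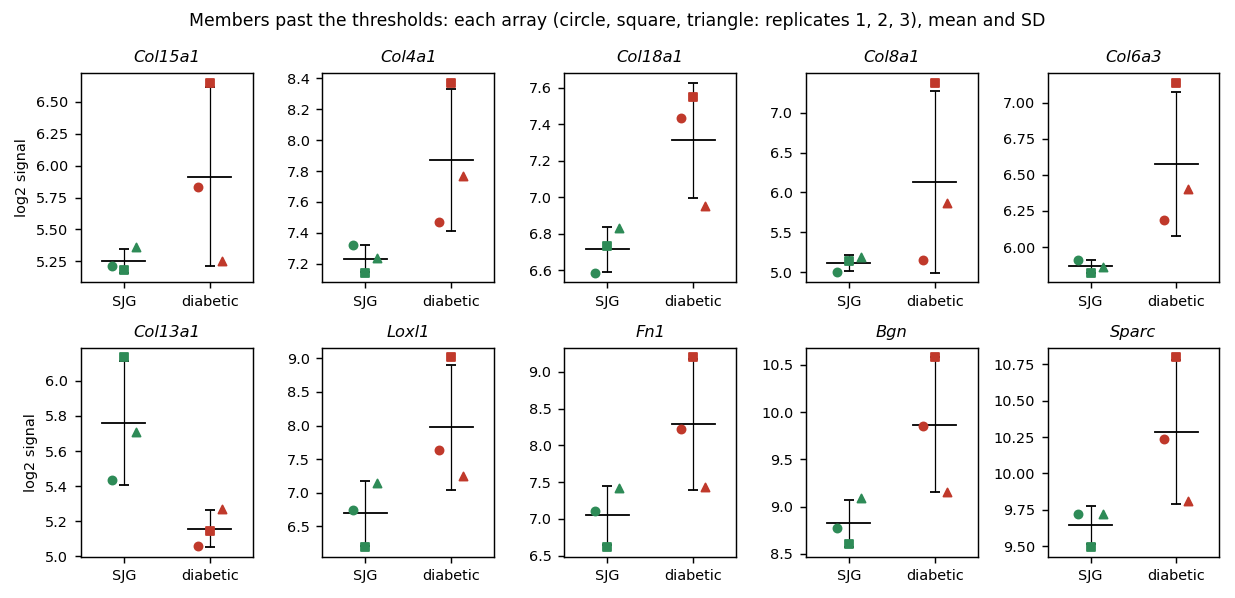
Log2 signal (vertical axis, own scale for each gene) on each array for the 10 members past the thresholds, with SJG arrays in green and diabetic arrays in red, replicates 1, 2 and 3 as circle, square and triangle, and the mean and SD in black. Diabetic replicate 2 is the highest point in the 9 members that fell, from 6.65 in Col15a1 to 10.80 in Sparc.

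In basement membranes, the ubiquitous chains of type IV collagen and the chains of the mature glomerular network had values of opposite sign. Col4a1 and Col4a2 encode the chains found in all basement membranes. Col4a1 had 7.32, 7.14 and 7.24 with SJG and 7.47, 8.37 and 7.77 in the diabetic rats. The groups did not overlap, and Col4a1 fell (log2 fold change -0.64, standard error 0.226). Col4a2 had 6.5, 6.58 and 6.77 with SJG and 6.87, 7.44 and 6.80 in the diabetic rats, also without overlap, and did not pass (-0.42, standard error 0.205). Without diabetic replicate 2 these values were -0.39 and -0.22 and Col4a1 no longer passed.
Col4a4, one of the chains of the mature glomerular network, had 8.01, 8.10 and 8.14 with SJG and 7.73, 7.72 and 7.74 in the diabetic rats. The SJG arrays were all above the diabetic arrays, which differed little among themselves. The log2 difference in limma was 0.36 (standard error 0.159, adjusted p = 0.772), which is under a fold change of 1.5, so Col4a4 did not pass, although its unadjusted p was 0.0459. Col4a5, on the X chromosome, had 6.37, 6.5 and 6.23 with SJG and 5.92, 6.36 and 6.05 in the diabetic rats, with overlap (0.26, standard error 0.182). Col4a3 had 7.77, 7.95 and 7.78 with SJG and 7.72, 7.42 and 7.95 in the diabetic rats, with overlap (0.14, standard error 0.186), and -0.0028 without diabetic replicate 2. Podocytes make these chains in the glomerulus. The 5 measured podocyte markers had log2 fold changes from 0.06 to 0.17, none past the thresholds, and a mean of 7.16 to 7.48 with SJG and 7.19 to 7.31 in the diabetic rats. The part of podocyte number in the values of Col4a3, Col4a4 and Col4a5 was not tested.

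Each of these pairs of type IV genes lies head to head, with transcription in opposite directions from a shared region. The annotated starts of Col4a2 and Col4a1 on chromosome 16 are 77 bases apart, and those of Col4a4 and Col4a3 on chromosome 9 are 413 bases apart. These were the only divergent pairs within 1000 bases among the 38 members with a start region in RefSeq. The windows of 250 bases before to 50 after the start are shown because the first pair had negative and the second pair positive log2 fold changes, with the motif letters given above in capitals. The window of Col4a1 (chr16:84885347-84885646, GRCr8, plus strand) shares 176 bases with that of Col4a2 and is shown for both. It is followed by Col4a3 (chr9:91323740-91324039, plus strand) and Col4a4 (chr9:91323528-91323827, minus strand).
Col4a1: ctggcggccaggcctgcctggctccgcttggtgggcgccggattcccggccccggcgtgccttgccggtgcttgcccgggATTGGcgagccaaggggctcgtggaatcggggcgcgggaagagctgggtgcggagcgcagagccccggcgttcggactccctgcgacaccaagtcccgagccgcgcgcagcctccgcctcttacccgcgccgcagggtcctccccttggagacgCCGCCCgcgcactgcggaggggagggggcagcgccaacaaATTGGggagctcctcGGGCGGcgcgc
Col4a3: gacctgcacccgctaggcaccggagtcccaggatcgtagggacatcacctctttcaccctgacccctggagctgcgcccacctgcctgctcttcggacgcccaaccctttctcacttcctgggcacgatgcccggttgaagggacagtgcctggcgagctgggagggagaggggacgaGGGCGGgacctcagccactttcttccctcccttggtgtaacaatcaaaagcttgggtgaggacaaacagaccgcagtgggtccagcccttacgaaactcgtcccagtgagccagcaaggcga
Col4a4: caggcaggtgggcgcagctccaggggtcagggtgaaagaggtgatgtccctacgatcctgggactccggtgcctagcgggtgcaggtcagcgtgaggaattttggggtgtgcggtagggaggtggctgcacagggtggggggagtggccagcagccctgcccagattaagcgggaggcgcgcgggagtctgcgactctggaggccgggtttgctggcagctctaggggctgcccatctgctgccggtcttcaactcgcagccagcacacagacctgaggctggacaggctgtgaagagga
The window of Col4a1 holds 2 CCAAT boxes and 2 GC boxes, that of Col4a3 holds 1 GC box and that of Col4a4 holds none of the motifs. GC boxes occurred in the windows of 20 of the 38 members (52.6%) and in 33.1% of the 33469 windows of all genes, CCAAT boxes in 26.3% and 37.5%, and TATA boxes in 15.8% and 14.2%. The units differ, since a member was counted where any of its windows held the letters, whereas the share over all genes counts single windows. The AP-1 element was in none of the 38 and in 4.63% of all windows. These are matches of letters and not known binding sites.

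Col15a1 and Col18a1 encode the multiplexins of the basement membrane zone, of which type XVIII carries the fragment endostatin at its end. Col18a1 had 6.59, 6.73 and 6.83 with SJG and 7.44, 7.55 and 6.95 in the diabetic rats. There was no overlap, and the value of -0.60 (standard error 0.197) was just past the fold change of 1.5, and -0.48 without diabetic replicate 2, -0.53 without SJG replicate 1 and -0.53 without diabetic replicate 1, each short of it. Col18a1 was the only one of the 9 that also passed with the unmoderated test. Col15a1 had 5.22, 5.18 and 5.36 with SJG and 5.83, 6.65 and 5.26 in the diabetic rats, where diabetic replicate 3 lay inside the SJG range (log2 fold change -0.66, standard error 0.292). Col15a1 failed the thresholds when any single array other than diabetic replicate 3 was left out, with -0.29 without diabetic replicate 2. The start region of Col18a1 (chr20:11473395-11473694, GRCr8, plus strand) is shown because Col18a1 did not overlap between the groups, and its 3 GC boxes are in capitals.
Col18a1: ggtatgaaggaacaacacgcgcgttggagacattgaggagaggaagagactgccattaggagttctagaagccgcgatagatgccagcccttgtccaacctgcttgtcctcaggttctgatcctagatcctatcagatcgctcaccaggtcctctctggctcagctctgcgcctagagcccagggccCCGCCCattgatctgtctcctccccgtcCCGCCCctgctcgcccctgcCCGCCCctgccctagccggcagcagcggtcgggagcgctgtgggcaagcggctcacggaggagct

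None of the 11 fibrillar collagens passed the thresholds, and their median log2 fold change was -0.01. Both chains of type I, that of type III and Col5a2 of type V, which build interstitial fibrils, had negative values, while Col5a1 and Col5a3 of type V had 0.23 and 0.28. Col1a1, for the main chain of type I collagen, had 5.99, 6.27 and 6.22 with SJG and 6.39, 7.17 and 6.20 in the diabetic rats, with overlap (log2 fold change -0.43, standard error 0.244). Col1a2, its partner chain, had 6.18, 6.35 and 6.41 with SJG and 6.49, 7.38 and 6.57 in the diabetic rats, without overlap (-0.50, standard error 0.236). Col3a1 had 6.74, 7.11 and 6.81 with SJG and 6.80, 7.92 and 6.90 in the diabetic rats, with overlap (-0.32, standard error 0.276). Col5a2, the neighbour of Col3a1 on chromosome 9, had 5.24, 5.19 and 5.36 with SJG and 5.30, 6.18 and 5.38 in the diabetic rats (-0.36, standard error 0.233). In all 4 genes diabetic replicate 2 was the highest array. Without it the log2 fold changes of Col1a1, Col1a2, Col3a1 and Col5a2 were -0.14, -0.22, 0.04 and -0.08. Of these genes only Col1a2 passed without diabetic replicate 1 (-0.66).
The other 7 fibrillar chains, among them the cartilage chains of types II and XI, ranged from -0.08 in Col24a1 to 0.38 in Col2a1. Col2a1 had 4.59, 5.32 and 5.12 with SJG and 4.74, 4.46 and 4.68 in the diabetic rats, with overlap, and passed only where SJG replicate 1 was left out (0.59). Col5a1 had 2 transcript clusters, of which the brighter gave 0.23 and the dimmer -0.01.

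Among the other collagens, Col8a1 and the type VI chains had negative values and Col13a1 rose. Type VI collagen forms beaded filaments around interstitial cells and basement membranes. Col6a3 fell, with 5.91, 5.82 and 5.86 with SJG and 6.19, 7.14 and 6.40 in the diabetic rats, without overlap (log2 fold change -0.71, standard error 0.235). Col6a2 had 5.28, 5.91 and 5.74 with SJG and 5.95, 6.12 and 6.05 in the diabetic rats, and Col6a6 had 5.97, 6.0 and 5.68 with SJG and 6.28, 6.52 and 6.15. Neither overlapped between the groups and neither passed (-0.40 and -0.43). All SJG arrays thus lay below all diabetic arrays in the 3 measured type VI chains, against 5.3% of all genes. Without diabetic replicate 2 they had -0.43, -0.36 and -0.33, and Col6a3 no longer passed. The gap in Col6a2 was narrow, from 5.91 on SJG replicate 2 to 5.95 on diabetic replicate 1. Its log2 fold change was -0.22 without SJG replicate 1.
Col8a1, a network-forming collagen of vessels and mesangium, had 5.0, 5.14 and 5.19 with SJG and 5.14, 7.38 and 5.86 in the diabetic rats. Its value of -1.02 (standard error 0.429) passed although the groups overlapped, was -0.39 without diabetic replicate 2, and also failed the thresholds without SJG replicate 1, 2 or 3 (-0.96, -1.03 and -1.06). Its partner Col8a2 had 0.26 and did not pass. Col12a1, which decorates type I fibrils, had 7.44, 7.35 and 7.86 with SJG and 7.64, 9.25 and 7.97 in the diabetic rats, with overlap, and did not pass (-0.74, standard error 0.350). Without diabetic replicate 2 its value was -0.26, and without diabetic replicate 1 it passed (-1.06). The 3 transmembrane collagens had positive values, as had 9134 of the 18166 genes tested. Col13a1, a membrane-bound collagen of cell adhesion sites, had 5.44, 6.14 and 5.71 with SJG and 5.06, 5.14 and 5.27 in the diabetic rats, without overlap, and rose by 0.60 (standard error 0.203), 1.52-fold. It did not pass without SJG replicate 2 (0.42) or diabetic replicate 1 (0.55). Col17a1 of the same class had 5.43, 5.47 and 5.73 against 5.11, 5.34 and 5.24, without overlap and without passing (0.32, standard error 0.172). The remaining 10 other collagens, which are Col7a1, Col9a1, Col9a2, Col10a1, Col14a1, Col16a1, Col19a1, Col20a1, Col23a1 and Col26a1, ranged from 0.00 to 0.36 and did not pass. The start region of Col13a1 (chr20:30466751-30467050, GRCr8, minus strand), the member that rose, holds 1 match to the TATA box letters, in capitals. It lies at position -237 from the annotated start, near the far end of the window.
Col13a1: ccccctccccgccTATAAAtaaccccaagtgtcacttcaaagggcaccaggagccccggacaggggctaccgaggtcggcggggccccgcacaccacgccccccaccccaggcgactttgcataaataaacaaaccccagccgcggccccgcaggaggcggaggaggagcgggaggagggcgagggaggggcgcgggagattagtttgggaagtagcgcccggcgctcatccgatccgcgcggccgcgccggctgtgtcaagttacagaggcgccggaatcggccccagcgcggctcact

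The array with the highest signal differed between bright and dim genes, among the members and over all genes. Diabetic replicate 2 was the highest of the 6 arrays in 25 of the 51 members (49.0%), compared with 21.9% of all genes, and it exceeded the mean of the other diabetic arrays by over 1 in 12 members (23.5%), compared with 1.85% of all genes. The 12 included Dcn, Col8a1, Fbn1, Lox, Loxl1, Col12a1 and Fn1, with differences from 2.08 to 1.37. Among the 25 members brighter than the median gene, diabetic replicate 2 was highest in 18, 8 fell and 20 had negative log2 fold changes, with a median of -0.50. Over all 9083 genes of that brightness, diabetic replicate 2 was highest in 2752, 242 fell, 5375 had negative values and the median was -0.05. Among the 26 dimmer members, SJG replicate 2 was highest in 13, 1 fell, 1 rose and the median was 0.14. This array had the highest median of the 6 over all transcript clusters, but the lowest mean over the genes tested, at 5.63. Over all 9083 dimmer genes SJG replicate 2 was highest in 2875, 143 fell, 89 rose and the median was 0.05. Leaving out diabetic replicate 2 reduced the decreases over all genes from 385 to 233 and the 9 decreases among the members to 3. Those were Fn1, Loxl1 and Bgn, with log2 fold changes of -0.78, -0.75 and -0.68, while Col13a1 stayed at 0.60. These 3 also passed when any other single array was left out. Leaving out diabetic replicate 3, the diabetic array closest to the SJG group in Fn1, Bgn, Sparc, Loxl1 and Col18a1, gave 16 decreases, adding Col1a1, Col1a2, Col12a1, Dcn, Fbn1, Lox and Loxl2, with Fn1 and Bgn at limma adjusted p-values of 0.0251 and 0.0238. It also raised the decreases over all genes from 385 to 1014 and gave 166 genes an adjusted p under 0.05, so the gain was not limited to the members. Leaving out SJG replicate 1 gave 3 increases, in Col13a1, Col2a1 and Col9a2, while the increases over all genes went from 180 to 373.

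**Figure D3:**
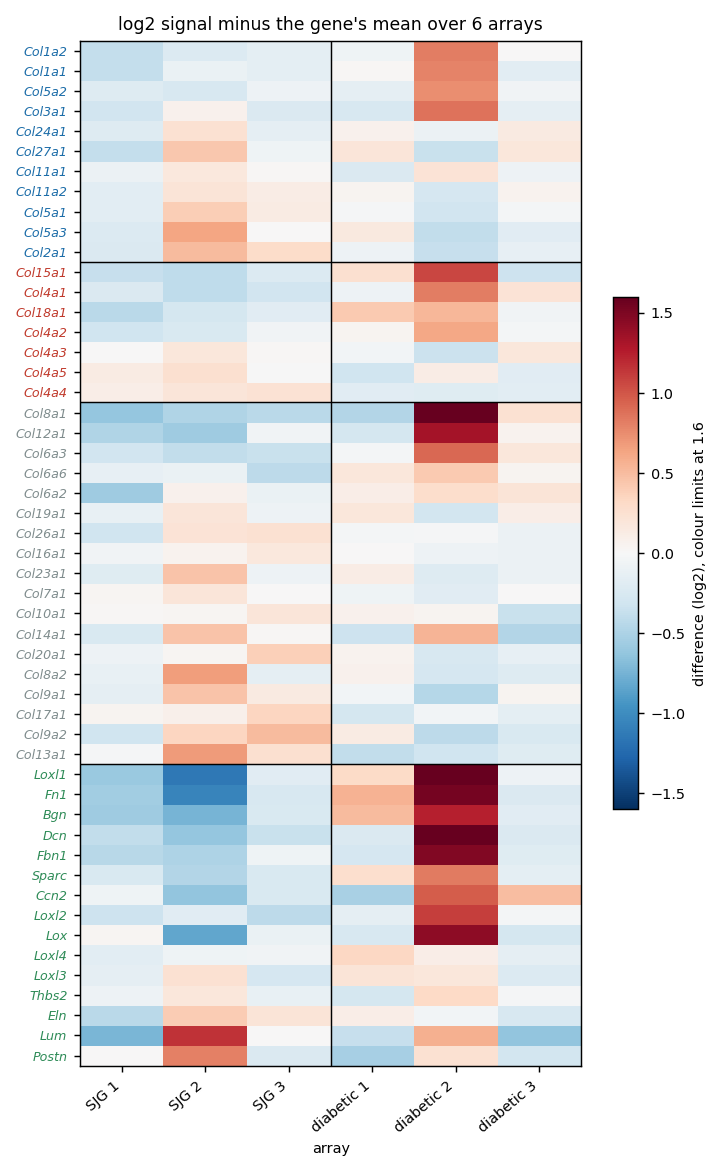
Log2 signal of each member on each array minus the mean of that gene over the 6 arrays, red above and blue below it, with members in rows by class (label colours as in the plot of fold changes) and arrays in columns, and colours saturated at the ends of the scale. The column of diabetic replicate 2 is red for most glycoproteins, for type VI and for Col1a1, Col1a2, Col3a1 and Col5a2, with Dcn 2.08 above the mean of the other diabetic arrays, while Lum, Postn and Col13a1 are highest in SJG replicate 2.

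**Figure D4:**
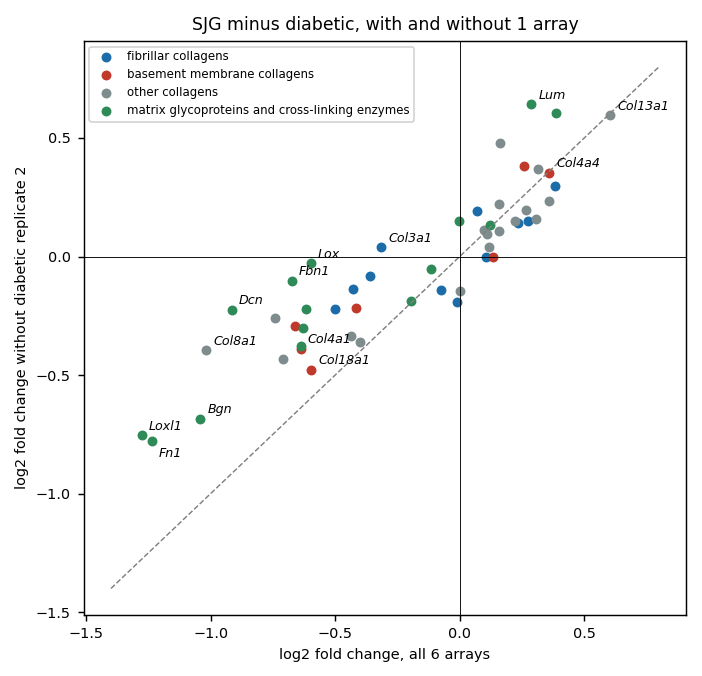
Log2 fold change of each member without diabetic replicate 2 (vertical axis) against that with all 6 arrays (horizontal axis), with the dashed line for equal values. Points above the line at the left moved towards 0, as Dcn did from -0.92 to -0.22, while Fn1, Loxl1 and Bgn stayed below -0.6.

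Genes that modify and process collagen were not members. Of all genes, 2.12% fell and 0.991% rose, for comparison with the counts that follow. Of 24 measured genes of collagen processing, such as hydroxylases, chaperones and propeptide proteases, 1 fell, none rose and the median log2 fold change was -0.08. The gene that fell was Bmp1, which encodes the protease that removes the C-terminal propeptides of fibrillar collagens and activates lysyl oxidase. It had 5.33, 5.64 and 5.85 with SJG and 6.26, 6.32 and 6.81 in the diabetic rats, without overlap (-0.86 in limma, standard error 0.210, adjusted p = 0.711), and diabetic replicate 2 did not stand apart in it. Of 27 other matrix proteins 4 fell and none rose, with a median of -0.25. They were Spp1 at -1.84, Prelp at -0.74, Ltbp4, which binds latent TGF-beta, at -0.66 and Ecm1 at -0.64. Spp1, which encodes osteopontin of injured tubules and macrophages, was chosen by the study on these samples. Without diabetic replicate 2 these 4 genes had -1.59, -0.36, -0.54 and -0.59, in that order. The groups overlapped in Prelp. Of 9 collagen receptors 1 fell, the leukocyte receptor gene Lair1 at -0.65, and none rose.

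Markers of the cells that make or surround the matrix varied over the same arrays. Their counts stand beside the 2.12% of all genes that fell and the 0.991% that rose. Of 12 fibroblast and pericyte markers 2 fell, Pdgfrb at -0.74 and S100a4 at -0.76, and none rose. Their mean was 5.94 to 6.23 with SJG and 6.06 to 6.57 in the diabetic rats, highest in diabetic replicate 2. Of 4 mesangial markers 2 fell, Pdgfrb again and Serpine2 at -0.77. The mean of the 4 was 6.43 to 6.73 with SJG and 6.77 to 7.46 in the diabetic rats, highest in diabetic replicate 2. Without diabetic replicate 2 Pdgfrb and Serpine2 had -0.44 and -0.31, and the groups overlapped in Pdgfrb. Of 10 macrophage markers 5 fell, which were Lilrb4, Lyz2, Cd68, Csf1r and Itgam, and none rose. The groups overlapped in Cd68 and Csf1r, and Itgam was chosen by the study on these samples. The mean of the 10 was 5.83 to 5.99 with SJG and 5.98 to 7.10 in the diabetic rats, again highest in diabetic replicate 2. Of 6 endothelial markers none passed, and the mean was 7.72 to 7.85 with SJG and 7.82 to 8.17 in the diabetic rats. Of 8 adipocyte markers 1 rose, Adipoq at 0.68, and the mean reached 7.39 in SJG replicate 2, compared with 6.11 to 6.38 on the other 5 arrays. SJG replicate 2 was the highest array in 17 of the 51 members (33.3%), Lum and Postn among them, compared with 18.8% of all genes. The arrays give no detection call, so no marker can be said to be absent, and the part of these cells in the values of the members was not tested.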

How the data were processed

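The authors deposited 1 log-scale signal per transcript cluster (a set of probes for a transcript) and array, taken here as log2 because the highest value of 13.7 lies below 16, the log2 of a full 16-bit reading. Background correction and normalization were steps not given in the sources used here. No further scaling was applied to the deposited values. Of 36685 transcript clusters, 18511 carried 1 gene, 575 several and 17599 none. Symbols were updated by gene number against GRCr8 RefSeq (18394 matched), and the brightest transcript cluster stood for each of 18166 genes. No genome build is named for the array, so only RefSeq start regions have coordinates. The groups of 3 arrays were compared with limma 3.58.1 in R 4.3.3 (lmFit and eBayes, prior degrees of freedom 6.94) without a replicate block, with Benjamini-Hochberg adjustment over all genes. No low-signal filter was applied, and the code was tested on simulated data. The members and gene lists were chosen with earlier results of these data known. Named genes were all members past the thresholds, the major renal matrix genes, the largest change in each direction per class, and genes of the other lists past the thresholds. Others, such as Col5a2, Col17a1 and Loxl3, were named after their values were seen. Alternatives were another variance model, the unmoderated test, a brightness filter, quantile normalization, median centring, array weights, averaged transcript clusters, a replicate block, other fold thresholds, treat, and leaving out each array. Centring on the median of the named genes was added after seeing the data.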

Additional observations from a re-analysis of the deposited data

How the results depend on the processing

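The count of 9 decreases was 1 with the unmoderated test, 5 with quantile normalization, 4 at a fold change above 2 and 4 with treat against a fold change of 1.2, and it ranged from 3 to 16 when single arrays were left out. Over all genes the 385 decreases became 77, 298, 81 and 205 in those settings, in that order, and 223 to 1014 without single arrays. The single increase was 0 among the genes above the median signal, with array weights, at a fold change above 2 and with treat, was 2 at a fold change above 1.2, and ranged from 0 to 3 without single arrays. Over all genes tested the 180 increases became 90, 237, 25, 108 and 479 in those settings, in that order, and 170 to 435 without single arrays. The median over the members was -0.50 among the genes above the median signal, where 25 members remained, and ranged from -0.22 to 0.03 without single arrays. Among those brighter genes the median of the other collagens reversed from 0.14 to -0.43. Without single arrays the median of the fibrillar collagens ranged from -0.22 to 0.13, and Col3a1 ranged from -0.52 to 0.039, Col4a3 from -0.0028 to 0.26, Eln from -0.051 to 0.37 and Lum from -0.22 to 0.73. The fold changes of the 9 decreases and of Col13a1 kept their sign under each alternative that tested them, which leaves out Col15a1 and Col13a1 for the genes above the median signal. For many alternatives the sign could not change. The variance models, fold thresholds, treat, brightness filter, averaged transcript clusters and replicate block leave these fold changes as they are. Where the groups do not overlap, leaving out a single array cannot reverse the sign either. The replicate numbers did not pair the arrays (correlations of deviations of -0.02, -0.29 and 0.00 for numbers 1, 2 and 3). With a replicate block 12 members fell and 1 rose, and over all genes 443 fell and 191 rose. With each array centred on the median of the named genes the split over all genes was 264 higher and 319 lower, and 8 members fell. Other settings, which are the trend and robust variance, centring on the array median and averaged transcript clusters, left 8 or 9 decreases and 1 increase. Over all genes these settings left 339 to 378 decreases and 174 to 183 increases. The causes were not tested. Dim members lie close to a background that is not known here.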
